A study of Mus musculus with 3 samples.

Results

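The genes described here are 10 mouse genes of connective tissue matrix, cell surface and cytoskeleton, namely Dcn, Bgn, Lum, Col1a1, Col1a2, Col3a1, Fn1, Cd44, Thy1 and Vim. They were read on 23 probe sets whose platform annotation names 1 of these symbols alone, out of 34945 such probe sets of 18193 genes. Dcn, Bgn, Cd44 and Vim were selected on their measured signal, which read higher on the MI array than on the wild-type array, so their height there is a description and supports nothing. The other 6 were chosen as markers of fibroblasts, the cells commonly used as feeder layers for embryonic stem cells.

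The study measured messenger RNA in embryoid bodies, the aggregates in which mouse embryonic stem cells start to differentiate, collected on day 7 from cells of strain 129S7/SvEv Brd-Hprt b-m2. All 3 groups carried human BRCA1, the tumour suppressor of homologous recombination repair. It was wild type in the WT bodies and carried M1652I in the MI bodies. In the RQ bodies it carried R1699Q per the series design, whereas the label of that array has R1669Q. Each group is 1 array, and the labels do not say how many clones or cultures stand behind it, nor what became of the mouse Brca1 gene. There is therefore no replicate, no test and no error for any value below, and precision is limited by having so few arrays. Per the labels, feeder cells were left to attach to a gelatin-coated plate and the stem cells in the supernatant formed the bodies.

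Values are the deposited log2 signals, so a difference of 1 is 2-fold. The median log2 signal was 6.29, 6.35 and 6.28 in WT, MI and RQ, and the SD over probe sets was 1.17, 1.06 and 1.17. A level limit was set at 6.31, the median of all signals on the 3 arrays, since no detection calls were used, and a signal below it was not read as a level. Of 18 probe sets for spiked control transcripts, the median was -0.80 in MI and -0.64 in RQ relative to WT. As a check of the label, all 6 pluripotency markers listed lay above the limit on every array, and markers of parietal endoderm and simple epithelium (9 of 10 and 6 of 6) did so on the WT array. Of 5 primitive streak and early mesoderm markers, 3 were above the limit on WT. Over all genes, 12971 of 18193 were above it on at least 1 array, so these counts are a weak check. In bulk RNA from whole bodies, more cells of a type and more RNA per cell cannot be told apart.

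Mesenchymal cells build a fibrous matrix in which type I and type III collagens form the fibrils, small leucine-rich proteoglycans such as decorin and biglycan coat them and set their spacing, and fibronectin links them to integrins. CD44 on the cell surface binds hyaluronan, THY1 is a lipid-anchored surface glycoprotein of fibroblasts and neurons, and vimentin is the intermediate filament protein of mesenchymal cells. In embryoid bodies such genes are known from mesoderm derivatives and, for vimentin and fibronectin, also from early endoderm.

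The upstream sequences of the members that read higher in MI are shown first, since genes that read high on the same array invite a look at their start sites. RefSeq promoter windows of assembly GRCm38.p6 were supplied for 5 of the 10 members, of which Bgn, Vim, Cd44 and Col1a2 were at least 2-fold higher in MI and Col3a1, shown for contrast, was not. Each line gives the 250 bases before the start site of the window, 5′ to 3′ on the gene's strand. Bgn is at chrX:73483351-73483600 (plus strand), Vim at chr2:13574061-13574310 (plus), Cd44 at chr2:102901666-102901915 (minus), Col1a2 at chr6:4505368-4505617 (plus) and Col3a1 at chr1:45311288-45311537 (plus). Capitals mark matches on either strand to TATAAA, the TATA box, and GGGCGG, the GC box; TGANTCA, the AP-1 site, and CACCTG, the E-box read by Snail and Zeb factors, were also searched.
Bgn: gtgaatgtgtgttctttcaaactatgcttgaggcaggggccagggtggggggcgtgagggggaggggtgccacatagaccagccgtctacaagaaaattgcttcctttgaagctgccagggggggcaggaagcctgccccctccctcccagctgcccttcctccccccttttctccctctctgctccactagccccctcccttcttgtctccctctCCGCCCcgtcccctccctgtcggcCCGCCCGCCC
Vim: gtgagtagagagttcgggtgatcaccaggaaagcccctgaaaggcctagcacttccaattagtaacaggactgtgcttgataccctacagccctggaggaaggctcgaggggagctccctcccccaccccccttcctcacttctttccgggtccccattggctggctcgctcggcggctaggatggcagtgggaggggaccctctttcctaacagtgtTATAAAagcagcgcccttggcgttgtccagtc
Cd44: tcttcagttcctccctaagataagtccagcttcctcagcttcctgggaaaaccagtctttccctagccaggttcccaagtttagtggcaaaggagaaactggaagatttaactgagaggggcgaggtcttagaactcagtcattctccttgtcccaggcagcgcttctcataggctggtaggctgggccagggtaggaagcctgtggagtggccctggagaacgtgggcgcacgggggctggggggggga
Col1a2: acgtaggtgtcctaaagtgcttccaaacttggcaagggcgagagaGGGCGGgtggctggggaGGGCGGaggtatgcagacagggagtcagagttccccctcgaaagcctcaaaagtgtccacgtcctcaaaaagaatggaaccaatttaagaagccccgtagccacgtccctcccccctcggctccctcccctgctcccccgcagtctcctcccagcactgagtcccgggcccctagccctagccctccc
Col3a1: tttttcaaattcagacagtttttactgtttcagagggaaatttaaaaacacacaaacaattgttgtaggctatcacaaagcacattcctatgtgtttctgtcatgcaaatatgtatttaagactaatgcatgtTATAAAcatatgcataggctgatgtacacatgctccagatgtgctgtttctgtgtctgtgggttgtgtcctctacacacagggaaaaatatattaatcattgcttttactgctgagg

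The Vim window held TATAAA 32 bases before the start site and the Col3a1 window held it 117 bases before. GGGCGG was found 3 times in the Bgn window, with 2 of the matches overlapping, and 2 times in the Col1a2 window, at the far end from the start. The Cd44 window held none of the 4 motifs, and no window held TGANTCA or CACCTG. Among 32851 RefSeq windows of this length, 12.4% held TATAAA, 32.7% GGGCGG, 6.75% TGANTCA and 17.2% CACCTG. No motif searched was present in all 4 windows of genes higher in MI. The Bgn, Vim, Cd44 and Col1a2 windows had 64.4%, 58.4%, 56.4% and 62.0% G and C, against a median of 52.4% over all windows, and Col3a1 had 35.2% and no CpG.

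**Figure D1:**
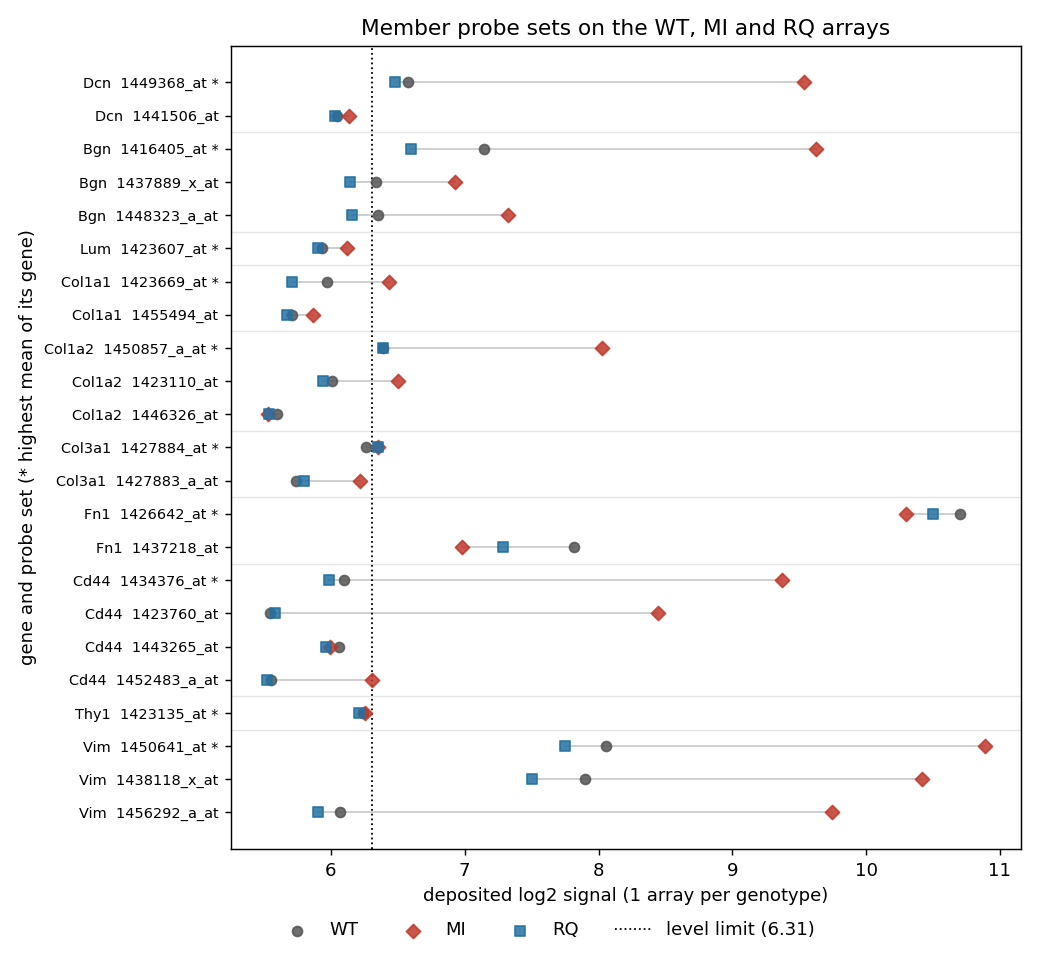
Deposited log2 signal (x axis) of the 23 member probe sets (y axis, by gene) on the 3 arrays, with 1 point per array; the dotted line is the level limit of 6.31 and a star marks the leading probe set of each gene, that of highest mean. MI lies to the right of both other arrays for the leading probe sets of Dcn, Bgn, Col1a2, Cd44 and Vim, while the leading probe set of Fn1 lies above 10 on each array and Lum and Thy1 lie left of the limit throughout.

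Taken by the probe set with the highest mean of each gene, 5 of the 10 members were at least 2-fold higher in MI than in WT and none was 2-fold lower. These were Dcn, Bgn, Cd44, Vim and Col1a2, of which the first 4 were chosen for it. Over all 12786 genes above the limit on either array, 0.516% lay 2-fold or more above WT in MI and 2.44% lay as far below it, and the rule used this contrast, so nothing is read from the count. The split of all genes was 66 higher and 312 lower as deposited, 83 and 217 with a lowess correction for level, and 107 and 193 with repeated quantile normalization. In RQ, the array the rule did not use, none of the 10 members was 2-fold from WT in either direction, where 1.68% of 12226 genes lay 2-fold or more above WT and 1.49% as far below it. At such shares a count of 0 among 10 genes is no result about them. The same 5 members were 2-fold higher in MI than in RQ (0.508% of 12800 genes higher and 1.98% lower), a comparison that shares the MI array with the one used for the choice.

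Among the proteoglycans, Dcn encodes decorin, which binds collagen fibrils and several growth factors. Its probe set 1449368_at read 6.57, 9.54 and 6.48 in WT, MI and RQ. MI was the high array, and WT and RQ lay just above the level limit. The difference was 7.81-fold between MI and WT and 8.35-fold between MI and RQ, and RQ minus WT was -0.10. The second probe set of Dcn read 6.04, 6.14 and 6.03 in WT, MI and RQ, below the limit on each, and the mean of both probe sets gave an MI minus WT of 1.53.

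Bgn encodes biglycan, a close relative of decorin. Its probe set 1416405_at read 7.14, 9.63 and 6.60 in WT, MI and RQ. Here the arrays stood in the order MI, WT, RQ, and RQ minus WT was -0.54, the largest such difference of any member probe set. MI was 5.60-fold above WT and 8.16-fold above RQ. The other Bgn probe sets kept that order at lower size, with 6.35, 7.33 and 6.16 in WT, MI and RQ for one and 6.34, 6.93 and 6.14 for the other, which gives 0.98 and 0.59 for MI minus WT, and the mean of the 3 probe sets gave 1.35.

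Lum encodes lumican, a proteoglycan of the same family that also sits on collagen fibrils. Its single probe set read 5.93, 6.12 and 5.90 in WT, MI and RQ. It lay below the limit on all 3 arrays, so no difference was read. Lum is the next protein-coding gene after Dcn in the RefSeq order of genes on the arrays. The gene on the other side of Dcn, Btg1, read 10.31, 9.56 and 9.79 in WT, MI and RQ, and Kera, beyond Lum, read 6.50, 6.71 and 6.48. The height of Dcn on the MI array was thus not seen in its neighbours.

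In a list of 15 small leucine-rich proteoglycans that holds these 3, Dcn and Bgn were the only genes past 2-fold in any of the comparisons. The remaining 12 had a median MI minus WT of 0.11 and a median RQ minus WT of -0.08, against 0.06 and 0.01 for all genes above the limit.

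Type I collagen is a trimer of 2 chains from Col1a1 and 1 from Col1a2, and is the main fibril of most connective tissue. The leading probe set of Col1a2, 1450857_a_at, read 6.39, 8.03 and 6.39 in WT, MI and RQ. MI alone was high, and WT and RQ differed by -0.01. MI was 3.11-fold above WT. The other Col1a2 probe sets read 6.01, 6.50 and 5.94 in WT, MI and RQ for one and 5.59, 5.53 and 5.54 for the other, so the 2-fold reading rests on 1 of 3 probe sets, and the mean of the 3 gave an MI minus WT of 0.69.

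Col1a1 read 5.97, 6.43 and 5.71 in WT, MI and RQ at 1423669_at. It passed the level limit through MI alone, by a small margin, and MI minus WT was 0.46. Its second probe set read 5.71, 5.87 and 5.67, below the limit on each array. The partner chain of Col1a2 thus also read highest in MI, at a size short of 2-fold. Its WT and RQ signals were themselves too low to be read, so nothing is read from that likeness.

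Col3a1 encodes the chain of type III collagen, the fibril of pliable tissue. It read 6.27, 6.35 and 6.35 in WT, MI and RQ at 1427884_at. All 3 arrays lay within 0.05 of the limit, and the differences from WT were 0.09 in MI and 0.08 in RQ. The second probe set, below the limit, read 5.74, 6.22 and 5.80 in WT, MI and RQ, with MI highest.

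Of the 11 fibrillar collagens listed, Col1a2 was the only one past 2-fold. The 8 that are no members had a median MI minus WT of 0.13. Of 10 genes for processing and crosslinking of collagen fibrils, none was 2-fold higher in MI than in WT by its leading probe set, and Serpinh1, the collagen chaperone, was lower on both mutant arrays (10.73, 8.74 and 8.01 in WT, MI and RQ). Pcolce, an enhancer of procollagen cleavage, read 6.67, 7.51 and 6.13 in WT, MI and RQ on its leading probe set, 2-fold higher in MI than in RQ alone. Its other probe set had an MI minus WT of 1.16, which is past 2-fold. Of these 10 genes, 9 were above 0 for MI minus WT, against 59.5% of all genes above the limit, and only Serpinh1 was below 0. The list median was 0.21, against 0.06. Some of the 9 lay below the limit on both arrays, such as Tll1 (5.51 and 5.58 in WT and MI) and Pcolce2 (5.76 and 5.91).

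Fn1 encodes fibronectin, the adhesive glycoprotein of early embryonic matrix. It read 10.70, 10.30 and 10.50 in WT, MI and RQ at 1426642_at. It was far above the limit on every array, with WT highest, RQ between and MI lowest, whereas Dcn and Cd44 had MI highest. MI minus WT was -0.40, which came to -0.01 with the lowess correction and to 0.01 with repeated quantile normalization, so its direction on this probe set depends on scaling. The second probe set read 7.82, 6.98 and 7.29 in WT, MI and RQ, in the same order, with -0.84 for MI minus WT. The lowess trend at its level was 0.03, so that correction leaves it lower in MI. Of the 13 other genes in the list of fibronectin receptors and partners, Fbln1, a fibulin that binds fibronectin, was 2-fold lower in MI (9.00, 7.53 and 8.59 in WT, MI and RQ). Its 3 probe sets ranged from -1.47 to -0.12 for MI minus WT. Sdc4, a syndecan that acts with integrins, was 2-fold lower in RQ by its leading probe set (11.03, 10.16 and 9.95), and the integrin genes listed, such as Itga5 (7.18, 7.16 and 7.04), were not past 2-fold.

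At the cell surface, Cd44 read 6.10, 9.37 and 5.98 in WT, MI and RQ at 1434376_at. The WT and RQ signals lay below the limit and MI alone was above it. MI lay 3.07 above the limit on the log2 scale, which puts it at least 8.39-fold above WT and RQ if these are set at the limit. The ratios of the signals as measured were 9.66 to WT and 10.5 to RQ. The probe set 1423760_at repeated this with 5.55, 8.44 and 5.58 in WT, MI and RQ. A probe set at 5.55, 6.30 and 5.52 had the same order and ended just under the limit, and the remaining one, at 6.06, 6.00 and 5.96, was below it throughout. The 4 Cd44 probe sets thus differed widely, from -0.06 to 3.27 for MI minus WT, and their mean gave 1.71.

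None of the 17 other genes in the list of hyaluronan and its partners was past 2-fold in any comparison, and their median MI minus WT was 0.09. That list holds the hyaluronan synthases Has1, Has2 and Has3 and the linker protein moesin (Msn), which read 8.95, 9.09 and 8.75 in WT, MI and RQ. Of the synthases, Has2 lay below the limit on every array (6.03, 6.13 and 6.01), and Has1 (6.71, 6.93 and 6.84) and Has3 (6.27, 6.46 and 6.27) lay near it.

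Thy1, the other surface gene, read 6.24, 6.25 and 6.21 in WT, MI and RQ on its single probe set. All 3 arrays were alike and below the limit. As with Lum, a low transcript cannot be told apart from an absent one.

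Vim read 8.05, 10.89 and 7.75 in WT, MI and RQ at 1450641_at. It was above the limit on every array, with MI highest and RQ slightly below WT. MI was 7.13-fold above WT and 8.79-fold above RQ. Its other probe sets gave 7.90, 10.42 and 7.50 in WT, MI and RQ, and 6.07, 9.74 and 5.90, so all 3 had the same order, with MI minus WT from 2.52 to 3.67. Vim was the only member for which every probe set was past 2-fold. In the list of type III and related filament proteins, the 8 others, which include desmin, nestin and the linker plectin, had no gene past 2-fold, with Des at 7.32, 6.90 and 6.87 and Nes at 7.97, 8.22 and 7.81.

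**Figure D2:**
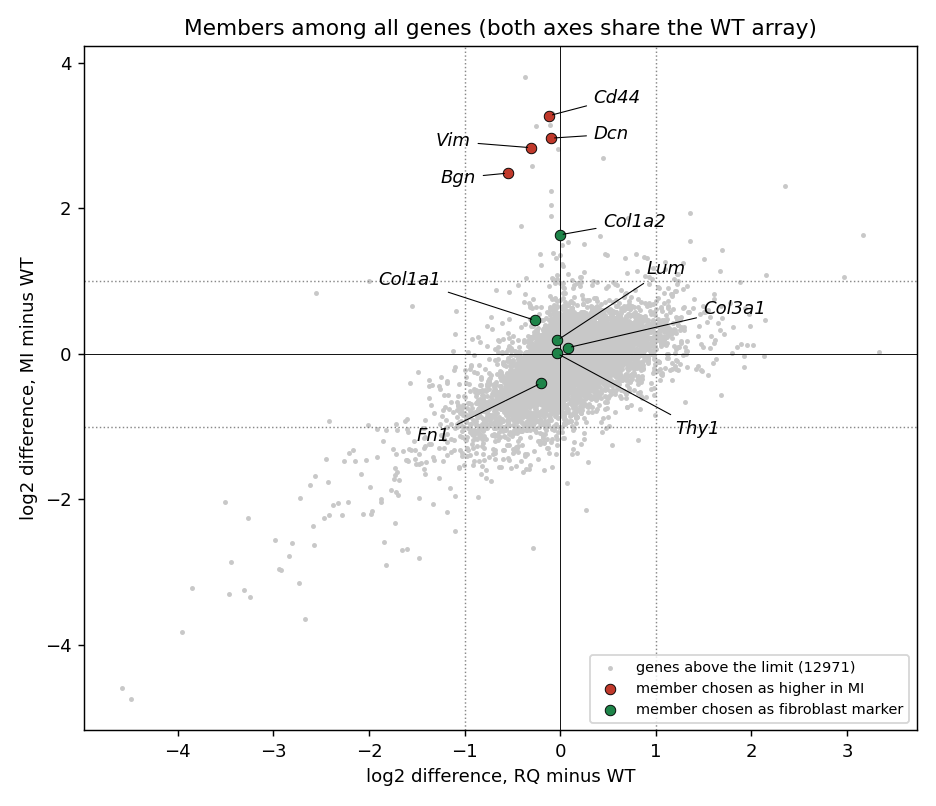
Log2 difference of MI (y axis) and RQ (x axis) from the WT array, which both axes share, for 12971 genes above the level limit on any array (grey) and the 10 members (coloured by how they were chosen); dotted lines are 2-fold limits. Cd44, Dcn, Vim, Bgn and Col1a2 lie above the upper 2-fold line of MI and within the 2-fold lines of RQ, and the other members lie within both.

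The 10 members thus fell into those high on the MI array (Dcn, Bgn, Cd44, Vim and Col1a2), those at or under the level limit on all arrays or nearly so (Lum, Thy1, Col3a1 and Col1a1) and Fn1, high on every array. Across the 23 probe sets, MI was the highest of the 3 arrays for 19, against 47.1% of all 34945 probe sets, and RQ was below WT for 20, against 51.2%. The 4 genes chosen as higher in MI held 12 of the 23, and for the 6 fibroblast markers MI was highest on 8 of 11 probe sets and RQ below WT on 9. Of the 23, 7 were above the limit on every array, 5 on the MI array alone and 8 on none. Those on MI alone include probe sets of Cd44 and Vim, which were chosen as higher there. Of all 34945 probe sets, 20845 were above the limit on at least 1 array, so nothing is read from these counts. RQ minus WT ranged from -0.54 to 0.04 over the 12 probe sets of the 4 members chosen as higher in MI, and from -0.53 to 0.08 over the 11 probe sets of the fibroblast markers. The median MI minus WT over the 6 fibroblast markers was 0.14, of which Lum and Thy1 passed the limit on no array and Col1a1 passed it through MI alone.

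The genes whose pair of differences from WT lay closest to a member's were found by Euclidean distance over the 2 differences, which rest on 3 arrays and share WT. Cd44 was closest to S100a4 (distance 0.05; 6.02, 9.33 and 5.93 in WT, MI and RQ), a calcium-binding protein of motile cells, then to Anxa1 and Dlk1. Dcn was closest to Vcam1 (0.17; 5.96, 8.77 and 5.94), an adhesion receptor, then to Anxa1, an annexin, and Dlk1. Vim was closest to Dcn (0.24), then Cpe and Vcam1, and Bgn to Cpe (0.27; 6.90, 9.48 and 6.61), Vim and Cxcl1. The genes closest to Col1a2 were Oaf (0.13), Ifi27 and Rtp4, the last 2 known as interferon-induced genes. The WT and RQ signals of Cd44, S100a4, Vcam1 and Oaf lay below the limit, so their distances rest in part on signals not read as levels. Dcn thus stood among the 3 closest genes of Vim, and Vim among those of Bgn, all of them selected on 1 of the 2 differences. Because Dcn, Vim, Cd44 and Bgn were chosen for a high MI minus WT, having few near genes follows from the choice. Within a distance of 0.5 there were 7 for Dcn, 7 for Vim, 6 for Cd44, 2 for Bgn and 14 for Col1a2, of 12970. For Col1a1, Col3a1 and Fn1 there were 5319, 9638 and 4754, so their patterns single out nothing; the closest were Setd3, Rgcc and Cavin1 for Col1a1, Wnt10b, Hoxc6 and Tmem43 for Col3a1, and H2az2, Tmem234 and Rpl22 for Fn1.

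Markers of fibroblasts beyond the members were read because feeder cells could carry over. Of 24 such genes on the arrays, 21 were above 0 for MI minus WT with a median of 0.30 (0.19 with probe sets averaged), against 0.06 for all genes above the limit, of which 59.5% were above 0. By the leading probe set S100a4 alone was 2-fold higher, at 9.95-fold from a WT signal below the limit. On all 60 probe sets of these genes, 4 genes had at least 1 past 2-fold higher in MI and none had 1 past 2-fold lower. Beside S100a4 these were Serpinf1, a secreted serpin (6.23, 7.67 and 6.28 in WT, MI and RQ on that probe set), Timp2 (2 of its 6 probe sets, the higher at 2.36-fold) and Lgals1 (2.13-fold). The share of all genes with at least 1 such probe set was not computed, so nothing is read from this count of 4. For RQ minus WT 8 of 24 were above 0, with a median of -0.04, against 51.7% and 0.01 for all genes above the limit. The summed linear signal of the 24 markers was 4212, 6496 and 3074 in WT, MI and RQ. Such a sum weighs the strongest signals most, which in MI were Lgals1, Igfbp4 and S100a4, so it does not describe the 24 genes alike. Lgals1, a galectin that many cell types make, read 9.96, 10.96 and 7.96, and it was 2-fold lower in RQ and just short of 2-fold higher in MI (0.999). Igfbp4, which binds insulin-like growth factors, read 8.93, 9.80 and 8.26, and the metalloproteinase inhibitor Timp2 read 7.19, 7.69 and 6.47, both 2-fold higher in MI than in RQ. By leading probe sets, Serpinf1 (7.45, 8.10 and 7.41) and the type VI collagen genes Col6a1 (6.30, 6.84 and 6.35), Col6a2 (7.43, 7.90 and 7.52) and Col6a3 (6.60, 7.11 and 6.72) were highest in MI at under 2-fold. The platelet-derived growth factor receptors Pdgfra (6.77, 7.15 and 6.74) and Pdgfrb (6.41, 6.46 and 6.35), and Postn (6.50, 6.57 and 6.46) and Fap (6.48, 6.54 and 6.46), differed less by leading probe sets, while Fstl1, a follistatin-like secreted protein, was lower in MI than in WT (-0.94). A second Pdgfra probe set read 6.67, 7.41 and 6.17 in WT, MI and RQ, with 0.74 for MI minus WT. These genes were named after their values were seen. Among the 6 members chosen as fibroblast markers, Col1a2 was 3.11-fold higher in MI, Col1a1 passed the limit through MI, Col3a1 lay within 0.05 of it, Lum and Thy1 lay below it and Fn1 was lowest in MI as deposited. Most fibroblast markers thus read higher in MI than in WT, few of them by 2-fold. Some differed by about the all-gene median of 0.06, such as Nt5e (0.04), Pdgfrb (0.05), Fap (0.06) and Postn (0.07). Sfrp1 was above 0 on its leading probe set (0.31) and below 0 on its others. The part of carried-over cells in the MI values was not tested.

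Transcription factors of mesenchymal fate had no gene past 2-fold among 13, with Foxc2 at 6.06, 6.53 and 6.08 in WT, MI and RQ and Zeb1 at 7.32, 7.72 and 7.92. The median MI minus WT of this list was 0.21. Of 10 genes of TGF-beta signalling, which drives matrix genes in many cells, none was 2-fold higher in MI than in WT. Tgfbi, a secreted matrix protein and target, read 5.98, 6.96 and 5.93, which is 2-fold higher in MI than in RQ and just short of it against WT (0.99). Skil, a feedback inhibitor, was 2-fold lower in MI than in RQ (10.17, 9.57 and 10.67), and Ccn2, a matricellular target, was lower on both mutant arrays (8.51, 6.76 and 6.08). The targets thus differed in direction, with Tgfbi higher and Ccn2 lower in MI than in WT.

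**Figure D3:**
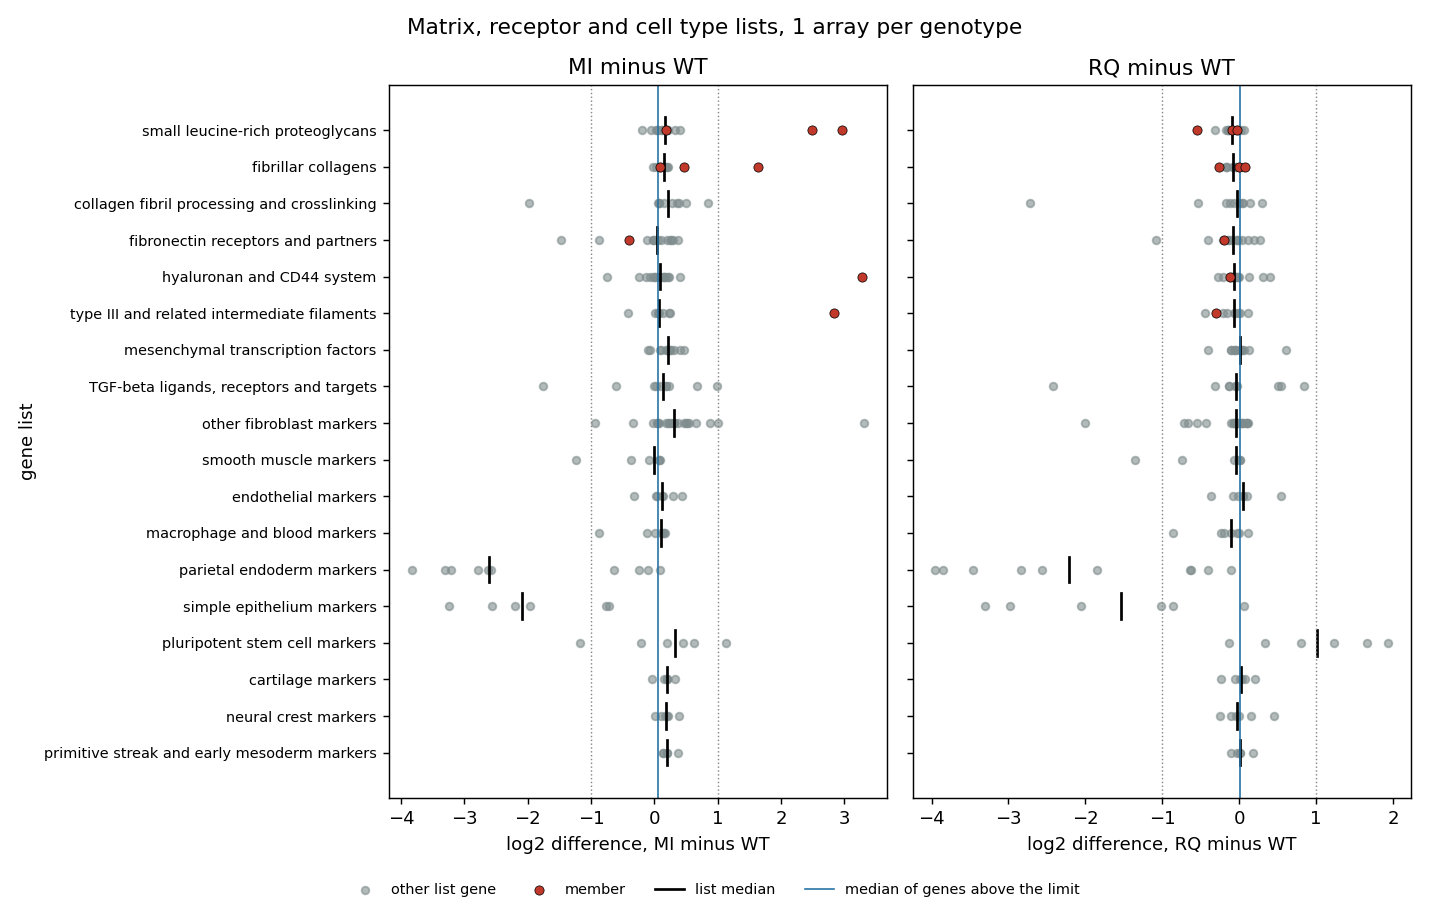
Log2 difference from WT (x axis; MI left, RQ right) of each gene in 18 lists (y axis), with members in red, other genes in grey, list medians as black bars, the median of genes above the limit as a blue line and 2-fold limits dotted. In the left panel Dcn, Bgn, Col1a2, Cd44 and Vim stand to the right of the other genes of their lists, and the parietal endoderm and epithelial lists lie to the left in both panels.

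Markers of other cell types were read beside the members. The 10 parietal endoderm markers had a summed linear signal of 13121, 1960 and 1772 in WT, MI and RQ. By leading probe sets 6 were 2-fold lower on each mutant array, namely Sparc, Lama1, Lamb1, Lamc1, Col4a1 and Col4a2. At least 1 other probe set of Lamb1, Lamc1 and Sparc fell short of 2-fold, at 0.10, -0.36 and -0.27 for MI minus WT. The epithelial list summed to 5549, 1405 and 2180, with Krt8, Krt18, Cldn6 and Epcam 2-fold lower in MI and Krt8, Krt18, Krt19 and Cldn6 in RQ. The 2 Epcam probe sets gave -1.97 and 0.02 for MI minus WT. Both lists were thus low on the MI array and on the RQ array, whereas Dcn, Bgn, Cd44, Vim and Col1a2 were high on MI alone. The pluripotency list summed to 9342, 10663 and 18666, and was highest in RQ. Nanog was 2-fold higher and Pou5f1 2-fold lower in MI than in WT, and Nanog, Sox2 and Zfp42 were 2-fold higher in RQ. The part of these cell populations in the members' values was not tested.

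Markers of further lineages were mostly within 2-fold of WT. Smooth muscle markers summed to 1021, 786 and 685 in WT, MI and RQ, with Tagln 2.36-fold lower in MI and 2.56-fold lower in RQ (8.01, 6.77 and 6.65). Read by leading probe sets, no gene was past 2-fold in the lists for cartilage (Sox9 7.03, 7.36 and 6.79; Acan 6.27, 6.48 and 6.48), neural crest (Tfap2a 7.66, 8.04 and 7.82; Ets1 7.02, 7.24 and 7.02), and early mesoderm (Pdgfra, given above, and Eomes 6.81, 7.00 and 6.98). The same held for endothelium (Pecam1 6.22, 6.65 and 6.76; Esam 6.72, 6.39 and 6.35) and for blood and macrophages (Hbb-bh1 5.65, 5.83 and 5.77), although Cd68, a lysosomal protein of macrophages, was 1.83-fold lower in MI (7.16, 6.29 and 6.29). No gene of these lists was 2-fold higher in MI than in WT by its leading probe set.

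**Figure D4:**
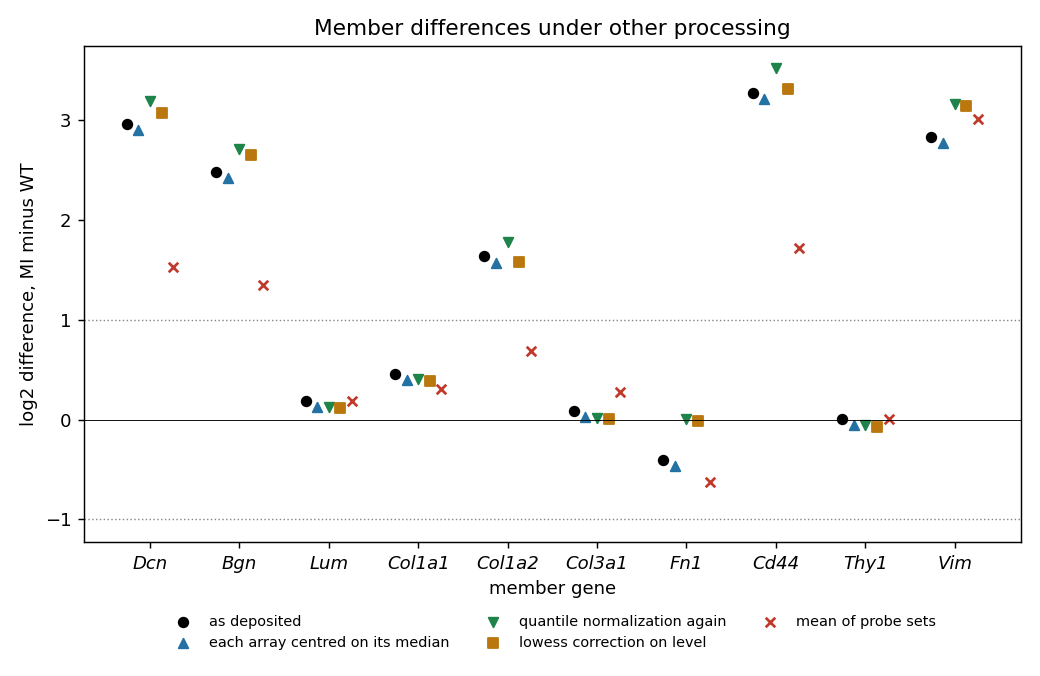
Log2 difference of MI from WT (y axis) for each member (x axis) as deposited, under 3 other scalings and with probe sets of a gene averaged; dotted lines are 2-fold limits. Dcn, Bgn, Cd44 and Vim stay above the upper line under each of these, Col1a2 drops to 0.69 with the mean of its probe sets, and Fn1 moves from -0.40 to about 0 with the lowess correction and quantile normalization.

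Genes beside the members on their chromosomes, taken as the next protein-coding gene on the arrays on either side in RefSeq order after the members' values were known, were not past 2-fold in MI against WT, apart from Dcn as the neighbour of Lum. Those of Vim were Trdmt1 (6.84, 7.24 and 7.17 in WT, MI and RQ) and St8sia6 (6.84, 6.88 and 6.80). Those of Cd44 were Slc1a2 (6.49, 6.70 and 6.49) and Pdhx (6.97, 7.27 and 7.24), those of Bgn were Haus7 (6.79, 6.25 and 6.25) and Atp2b3 (7.26, 7.56 and 7.28), and those of Col1a2 were Bet1 (6.32, 6.35 and 6.13) and Casd1 (6.49, 6.66 and 6.60). None of these neighbours read high in MI as the members beside them did.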

How the data were processed

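Each genotype gave 1 Affymetrix mouse array, labelled from 6 ug of total RNA per the labels' protocols, and the analysis starts from its log2 signals as deposited (45101 probe sets). The submitters' processing notes name Partek and RMA, which subtracts background, equalises arrays and summarises probes, with no version. RMA can pull low signals towards background and shrink their differences. Detection calls and the order of steps are not given in the sources used here. A single symbol was given for 34945 probe sets other than controls, and those with several symbols (932) or without one (9211) were left out. Entrez identifiers of 34741 matched RefSeq GRCm38.p6, which altered 0 symbols.

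A gene was represented by the probe set of highest mean. A difference counted at 2-fold where the higher of the 2 arrays reached 6.31. The members and the 18 lists (190 entries, 183 on the arrays) were chosen with earlier results of these data known. Named genes are the members, list genes past 2-fold, the 2 largest MI against WT differences of a list with none, and the 3 genes closest to each member; other names were chosen after their values were seen. List entries without a matched probe set were not used here. Alternatives were median centring, quantile normalization, lowess (span 0.3, 3 robustness iterations), other level limits and probe set rules, and limits of 1.5-fold and 3-fold. Python 3.11.15, pandas 2.3.3 and statsmodels 0.14.6 were used, and the counting was tested on simulated data.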

Additional observations from a re-analysis of the deposited data

How the results depend on the processing

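No paired analysis was possible because each genotype has 1 array. Only 4 of the alternatives, the 3 scalings and the mean of probe sets, can move a member's value here. Under these, 2 of 120 values crossed the 2-fold limit, both of Col1a2 with the mean of its probe sets (0.69 for MI minus WT and 0.73 for MI minus RQ). The other level limits and the rule without shared probe sets left each member's value and call as they were, and say nothing of stability. At the 1.5-fold limit Col1a1 was also called, at its unchanged 0.72 for MI minus RQ. The count of members 2-fold higher in MI was therefore 5, or 4 with means of probe sets, and it was 0 for RQ against WT under every alternative run. Counts over all genes moved more. At 1.5-fold they were 246 higher and 1028 lower for MI minus WT, 844 and 531 for RQ minus WT, and 198 and 1221 for MI minus RQ. At 3-fold they were 21 and 69, 34 and 75, and 20 and 29, as fewer genes pass a stricter limit. With quantile normalization again they were 107 and 193 for MI minus WT and 106 and 116 for MI minus RQ, and the lowess correction gave 148 lower for MI minus RQ. Means of probe sets gave 198 lower for MI minus WT, 102 higher for RQ minus WT, and 42 higher and 129 lower for MI minus RQ. The causes were not tested. List medians, recomputed after the data were seen, changed sign with a scaling for some lists near 0, such as that of fibronectin partners in MI minus WT (0.04 as deposited and -0.03 after centring). Signals near the level limit set what can be read, and Lum and Thy1 lie below it throughout.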
